A study of Mus musculus with 2 samples.

Results

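The 10 microRNA genes described here lie at the Meg3 end of the imprinted Dlk1-Dio3 locus of mouse chromosome 12 and in the stretch antisense to Rtl1. They are Mir770, Mir673, Mir493, Mir337, Mir665, Mir431, Mir433, Mir127, Mir434 and Mir136. They were taken by name and position, on the plus strand, from the 2202 microRNA genes that were counted, and all 10 were found in the files by gene identifier. The interval from the start of Mir770 to the end of Mir136 spans 31697 bases of mm10. Small RNA below 30 nt was sequenced from hippocampus of female B6CASTF1/J mice, an F1 hybrid of C57BL/6J and CAST, at 10 days of age. There was 1 group of 2 biological replicates, and the labels name 3 females, not the same ones, for each. With no treatment and no second group, the data give levels, their order, their place in the locus and the spread between the 2 libraries. The counts do not separate the parental alleles of the hybrid.

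The Dlk1-Dio3 locus is controlled by parental imprinting. Protein-coding genes of the locus such as Dlk1 and Rtl1 are active on the paternal chromosome, while the non-coding RNAs Meg3, anti-Rtl1, Rian and Mirg, which carry the microRNAs, are made from the maternal one. A microRNA is cut from a hairpin precursor into a 5p and a 3p arm, and the arm that is kept guides Argonaute proteins to target RNAs mainly through its seed, bases 2 to 8. The microRNAs antisense to Rtl1 are known to pair with Rtl1 messenger RNA without mismatches and to guide its cleavage. Rtl1 encodes a protein derived from a retrotransposon that is needed in the placenta and is also present in muscle and brain.

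RefSeq (GRCm38.p6) held a hairpin and 2 mature arms for each of the 10 genes, and every hairpin had the same position and sequence as in GENCODE M21. The 20 mature sequences are shown because the members differ in their seeds, which are in capitals, and because a count covers a whole gene and does not tell its arms apart. The 10 arms at the Meg3 end, from Mir770 to Mir665, were read from the plus strand and are written 5′ to 3′.
miR-770-5p: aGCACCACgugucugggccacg
miR-770-3p: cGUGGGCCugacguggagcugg
miR-673-5p: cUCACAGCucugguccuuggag
miR-673-3p: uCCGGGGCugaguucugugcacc
miR-493-5p: uUGUACAUgguaggcuuuc
miR-493-3p: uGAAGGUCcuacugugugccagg
miR-337-5p: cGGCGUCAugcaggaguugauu
miR-337-3p: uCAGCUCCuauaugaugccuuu
miR-665-5p: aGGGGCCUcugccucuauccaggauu
miR-665-3p: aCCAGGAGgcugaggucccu

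The 10 arms that lie antisense to Rtl1, again with seeds in capitals, follow in the same order along the chromosome.
miR-431-5p: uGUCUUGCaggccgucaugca
miR-431-3p: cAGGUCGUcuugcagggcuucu
miR-433-5p: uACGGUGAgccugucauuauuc
miR-433-3p: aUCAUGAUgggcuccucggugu
miR-127-5p: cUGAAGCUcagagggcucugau
miR-127-3p: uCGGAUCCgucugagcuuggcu
miR-434-5p: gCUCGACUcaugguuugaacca
miR-434-3p: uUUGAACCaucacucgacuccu
miR-136-5p: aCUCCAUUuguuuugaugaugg
miR-136-3p: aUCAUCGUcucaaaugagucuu

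No seed was shared between members, as the 20 arms carried 20 distinct seeds. Of these, 19 occurred in no other gene of the 1738 mature sequences in the RefSeq table. The exception was miR-673-5p, whose seed is also that of miR-6985-3p. The arms were 19 to 26 nt long, and 8 of 20 began with U, beside 41.3% of all mature sequences in the table. Their median GC content was 55.5% and ran from 36.4% for both arms of Mir136 to 72.7% for miR-770-3p, beside a median of 52.2% over the table. Shared stretches were sought in all other microRNA genes except those that overlap the member on the chromosome. The longest stretch that a member's hairpin shared with such a gene, on either strand, was 11 to 14 nt. No member therefore has a near-identical copy at another place among annotated microRNA genes. Copies elsewhere in the genome were not searched.

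The members fall into 2 positional groups of 5. Mir770 (ENSMUSG00000076451.1, chr12:109563692-109563785) lies within Meg3, where it is exonic in 1 of the 4 Meg3 transcripts that span it, out of 11. Mir673 (chr12:109571990-109572080) starts 263 bases past the annotated end of Meg3. Mir493 (chr12:109580233-109580315), Mir337 (chr12:109585789-109585885) and Mir665 (chr12:109586314-109586407) overlap no annotated host gene on either strand, apart from a microRNA gene opposite Mir337. These genes from Mir770 to Mir665 are called the Meg3 end below. After a gap of 4039 bases follow Mir431 (chr12:109590447-109590537), Mir433 (chr12:109591715-109591838), Mir127 (ENSMUSG00000070076.2, chr12:109592846-109592915), Mir434 (chr12:109594506-109594599) and Mir136, which starts at base 109595327. All 5 lie opposite the protein-coding sequence of the single annotated Rtl1 transcript, which is on the minus strand.

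Each of the 10 arms of these 5 genes had its complete reverse complement in the Rtl1 transcript of 6358 bases, within coding sequence. The sites of the Mir127 and Mir433 arms are shown because these are the most abundant genes of the group. Capitals mark the bases that pair with the seed, and the Rtl1 strand is written 5′ to 3′.
Rtl1 opposite miR-127-3p, from base 2642 of the transcript: agccaagctcagacGGATCCGa
Rtl1 opposite miR-127-5p, from base 2676: atcagagccctctgAGCTTCAg
Rtl1 opposite miR-433-3p, from base 3749: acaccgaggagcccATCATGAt
Rtl1 opposite miR-433-5p, from base 3801: gaataatgacaggcTCACCGTa
The arms of the Meg3 end had no complete match, and their longest complementary stretch in Rtl1 was 7 to 11 bases. This complementarity follows from the position of the genes and is not a measurement of cleavage.

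Replicate 1 held 5479267 sense counts on microRNA genes and replicate 2 held 3563226. Reads that matched several places made up 43.2% and 39.3% of all reads and are in no gene count. Levels are given as counts per 1000000 sense counts (CPM), and a spread is the SD of 2 libraries. A read covers a whole mature microRNA, so counts were not divided by length, and levels of different genes are compared as reads, not as molecules. Exact Clopper-Pearson intervals at 95% cover counting error only. Nothing beyond the labels shows how far the replicates are independent, so the spread between them may be partly technical.

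All 10 members counted as detected, a term used here for a gene with 10 or more sense counts in both libraries. Of all microRNA genes 19.5% did. Together they held 10.2% of the sense counts in replicate 1 (interval 10.14% to 10.19%) and 12.4% in replicate 2 (12.40% to 12.46%), or 11.3% ± 1.60 (SD, n = 2). The libraries differed by far more than counting error. Mir127, Mir770 and Mir433 carried 89.7% of the members' counts in replicate 1 and 90.7% in replicate 2. The remaining 7 genes were spread over a range from 79.5 to 3275 CPM. The median level of the 10 members was 3131 CPM, beside 87.8 CPM over the 429 detected genes.

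**Figure D1:**
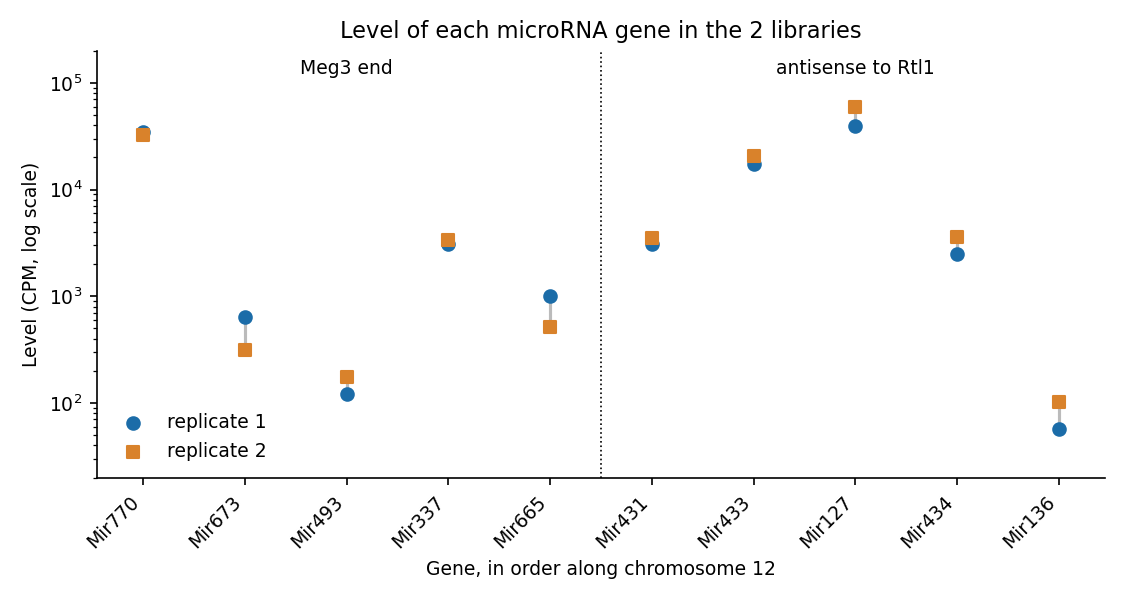
Level of each member in CPM on a log axis, in order along chromosome 12, with replicate 1 as circles and replicate 2 as squares; the dotted line parts the Meg3 end from the genes antisense to Rtl1. Mir127, Mir770 and Mir433 stand above 10000 CPM in both libraries, while Mir673 and Mir665 are lower and Mir136 is higher in replicate 2.

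Mir127, whose deletion is known to impair the placental labyrinth in mice, was the most abundant member. It had 215667 counts in replicate 1 and 211501 in the shallower replicate 2, or 39361 and 59357 CPM. Its mean was 49359 ± 14139 CPM (SD, n = 2), and it stood at rank 6 and rank 3 among all genes. Ranks here and below use the gene counts, which leave out reads that match several places, so genes with copies may rank too low. Replicate 2 was the higher library. The counts come from the short hairpin shown next, at chr12:109592846-109592915 on the plus strand, with both arms in capitals.
Mir127 hairpin: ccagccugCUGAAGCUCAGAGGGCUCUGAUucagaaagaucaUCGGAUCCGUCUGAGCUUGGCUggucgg

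Mir770, the member inside Meg3, followed with 189527 and 116507 counts, or 34590 and 32697 CPM. Its mean of 33643 ± 1338 CPM (SD, n = 2) had the smallest spread relative to its level of the 10 members, and its ranks were 8 and 7. The 2 libraries did not overlap with those of Mir127, which was 1.47 times as abundant on average. The Mir770 hairpin, with its arms in capitals, is the one with the highest GC content of the 10, 70.2%.
Mir770 hairpin: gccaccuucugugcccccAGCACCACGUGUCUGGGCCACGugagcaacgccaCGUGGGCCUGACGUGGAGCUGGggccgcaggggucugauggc

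Mir433, reported to target the mRNA of fibroblast growth factor 20, came next. It had 94117 and 73839 counts, or 17177 and 20722 CPM, a mean of 18950 ± 2507 CPM (SD, n = 2), below Mir770 in both libraries by 1.78-fold on average.

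A step of 5.79-fold separated Mir433 from a middle tier of 3 genes. Mir431, known from regenerating sensory axons, had 3066 and 3484 CPM. Mir337 had 3110 and 3365 CPM. Mir434, found in brain and muscle, had 2485 and 3562 CPM. Their order was not resolved, since Mir434 was the lowest of them in replicate 1 and the highest in replicate 2.

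A lower tier held 4 genes, of which the highest, Mir665, lay 3.99-fold below Mir434 by their means. Mir665 had 998 and 518 CPM, and Mir673 had 646 and 314 CPM, with replicate 1 the higher library for both. The range of Mir665 overlapped that of Mir673, although Mir665 was the higher gene in both libraries. Mir493, studied as a suppressor of metastasis in human tumours, had 672 and 623 counts, or 123 and 175 CPM. Mir136 was the lowest member, with 312 and 364 counts, or 56.9 and 102 CPM, and its range did not overlap that of Mir493. Both of these genes were still well above the 0.548 and 0.842 CPM that a count of 0 allows in replicates 1 and 2.

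Levels were uneven within each positional group. The 5 genes antisense to Rtl1 held 61.2% of the members' counts in replicate 1 and 70.2% in replicate 2, or 65.7% ± 6.38 (SD, n = 2), and the Meg3 end held the rest, 34.3% ± 6.38. Mir127 alone made up 43.2% ± 6.38 and Mir770 30.2% ± 5.47. Without Mir127 the genes antisense to Rtl1 held 39.8% ± 4.47 of the counts of the 9 other members. Within this group, opposite the same coding exon of Rtl1, mean levels ran from 79.5 CPM for Mir136 to 49359 CPM for Mir127.

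Mir337 and Mir136 depended on how strands were counted. A microRNA gene is annotated opposite each of them, Mir3544 opposite Mir337 and Mir3071 opposite Mir136. In the deposited counts made without regard to strand, Mir337 had 0 and 1 counts in replicates 1 and 2 and Mir136 had 0 in each. Reads over 2 genes are set apart there in a row of ambiguous reads, which held 2.14% and 2.27% of all reads. On the sense strand Mir337 had 17041 and 11989 counts and Mir136 had 312 and 364. The minus-strand genes Mir3544 and Mir3071 had no sense count in either library. Across all 10 members, antisense counts were 0 in replicate 1 and numbered 1, on Mir337, in replicate 2. The mature forms annotated on the minus strand face the arms of the members, as with miR-3544-5p, which overlaps miR-337-3p by 21 bases, and miR-3071-3p, which overlaps miR-136-5p by 20 bases. They are shown with their seeds in capitals for comparison with the arms above.
miR-3544-5p: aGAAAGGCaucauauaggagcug
miR-3071-3p: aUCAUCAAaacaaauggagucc

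The plus strand of the interval also holds Mir540, Mir3070a, Mir3070b and Mir432. Mir540, between Mir337 and Mir665, was the only abundant one, with 8964 and 5228 counts, or 1636 and 1467 CPM. Mir3070b had 137 and 94 counts and Mir3070a had 76 and 65. These last genes carry the same miR-3070-5p, so its reads match more than one place. Mir432, between Mir434 and Mir136, had no count in either library. With these genes added, the interval held 11.5% ± 1.59 of the sense counts (SD, n = 2).

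The difference between the libraries was measured for each gene as the log2 ratio of replicate 2 to replicate 1, after scaling with TMM factors from edgeR (0.979 and 1.02). A two-sided exact binomial test with Benjamini-Hochberg adjustment over the 429 detected genes asked whether it exceeded counting error. It compares 2 libraries of 1 group, not conditions. All 10 members differed at an adjusted p of 0.05, 7 higher and 3 lower in replicate 2. Over all detected genes 61.3% differed, 28.7% higher and 32.6% lower. Calls were more frequent among abundant genes. Where the mean count reached 10000 or more, 97.4% of 76 genes differed, among them all 6 members at that depth, so a call on an abundant member is near the background for its depth.

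The genes antisense to Rtl1 were all 5 higher in replicate 2, as were 230 of the 429 detected genes. Their log2 ratios were 0.12 for Mir431, 0.21 for Mir433, 0.53 for Mir127, 0.46 for Mir434 and 0.78 for Mir136. The counting interval of Mir127 ran from 0.52 to 0.54, and that of Mir136, with the fewest reads, from 0.56 to 1.00. At the Meg3 end the directions were mixed. Mir493 was higher in replicate 2 by 0.45 on the log2 scale (adjusted p = 6.27e-08, exact binomial test), and Mir337 by 0.05 (adjusted p = 0.00460, exact binomial test). Mir770 was slightly lower at -0.14, with an interval from -0.15 to -0.13.

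Mir673 and Mir665 showed the widest differences. Mir673 had 3538 and 1119 counts, 2.14-fold higher in replicate 1, which is -1.10 on the log2 scale (adjusted p = 5.42e-122 by the exact binomial test). Mir665 had 5466 and 1847 counts, 2.01-fold higher in replicate 1, which is -1.01 on the log2 scale with an interval from -1.08 to -0.93 (adjusted p = 2.47e-162 by the exact binomial test). These were the 2 members that differed at least 2-fold, as did 11.9% of all detected genes. Mir665 was at that limit, with log2 ratios of -0.94 when scaled by library totals and -0.98 in counts without regard to strand, both short of 2-fold, whereas Mir673 stayed past it at -1.04 and -1.07. Mir337, which lies 428 bases before Mir665, did not share this difference. Over the 10 members the median log2 ratio was 0.17 and the median absolute log2 ratio 0.45, beside 0.05 and 0.33 over all detected genes. For Mir127, 33.3% of the detected genes had a ratio at least as far from 0, for Mir770 76.9% and for Mir673 9.32%.

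**Figure D2:**
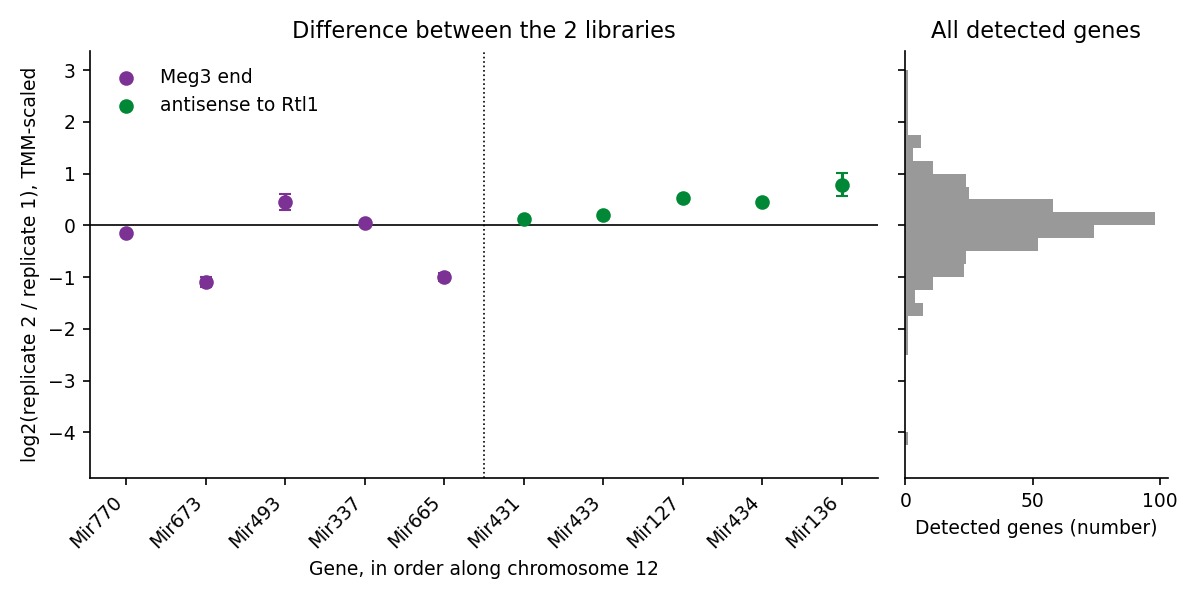
Left, log2 ratio of replicate 2 to replicate 1 for each member in order along chromosome 12, with exact 95% counting intervals as bars, many of them smaller than the points; right, the number of detected genes at each ratio on the same axis. The 5 genes antisense to Rtl1 lie above 0, as do 230 of the 429 detected genes. Mir673 and Mir665 lie near -1.10 and -1.01, within the range of all detected genes.

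Mir127 carried the difference in the members' summed share. Without it the other 9 members held 6.23% of the sense counts in replicate 1 and 6.49% in replicate 2, and the log2 ratio of their summed counts fell from 0.23 for all 10 to 0.00. That value sums opposite directions. The summed Meg3 end had -0.15, and the other genes antisense to Rtl1 had 0.12 to 0.78.

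The members' ratios were also set beside the GC content of their hairpins. Mir136 and Mir434, with 40.3% and 45.7% GC, had log2 ratios of 0.78 and 0.46, and Mir673 and Mir770, with 61.5% and 70.2%, were lower in replicate 2. Mir433, Mir127 and Mir431, at 56.5%, 57.1% and 60.4% GC, were higher in replicate 2, with ratios of 0.21, 0.53 and 0.12. Spearman's rho between GC content and the ratio was -0.59 over the 10 members, which share the 2 libraries, and 0.05 over all 429 detected genes. Mir493, Mir337 and Mir665 had nearly equal GC contents of 53.0%, 52.6% and 53.2% and log2 ratios of 0.45, 0.05 and -1.01. The part of GC content in the ratios was not tested.

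**Figure D3:**
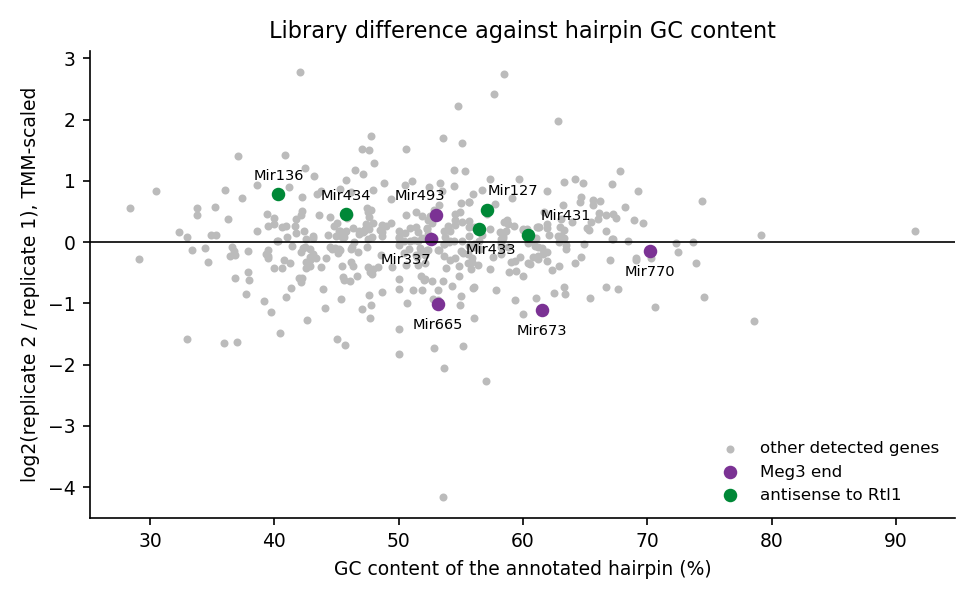
Log2 ratio of replicate 2 to replicate 1 against the GC content of the annotated hairpin in percent, one point per detected gene, with the members named and coloured by position. Mir136 at 40.3% lies above 0 and Mir770 at 70.2% below it. Members between them in GC content lie on both sides of 0, from Mir673 at -1.10 to Mir127 at 0.53. The 429 detected genes show a rho of 0.05.

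Beyond Mir136 the plus strand of the locus holds a middle group of 4 genes within the span of Rian and a distal group of 40 genes that reaches into Mirg. The members held 47.4% of the locus's counts in replicate 1 and 54.9% in replicate 2, or 51.2% ± 5.29 (SD, n = 2). The distal group held 49.1% and 42.0%, or 45.5% ± 5.04, so the order of the members and the distal group turned between the libraries. The middle group held 2.56% ± 0.174. Detection was 35 of 40 genes in the distal group and 3 of 4 in the middle group, and the medians of their detected genes were 734 and 1996 CPM. The leading distal genes were Mir487b at 32842 ± 5631 CPM, Mir382 at 16501 ± 1392 CPM and Mir541 at 10924 ± 1077 CPM (SD, n = 2).

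The 3 leading distal genes were all lower in replicate 2, with log2 ratios of -0.41 for Mir487b, -0.23 for Mir382 and -0.26 for Mir541. Of the 3 leading members, Mir127 and Mir433 were higher and Mir770 was lower, at -0.14. Over the distal group the exact binomial test called 12 genes higher and 14 lower in replicate 2, and the median log2 ratio was 0.07. In the middle group Mir370 had a log2 ratio of 0.35, Mir341 of -0.94 and Mir1188 of -0.24. With 2 libraries no difference between these groups was tested.

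**Figure D4:**
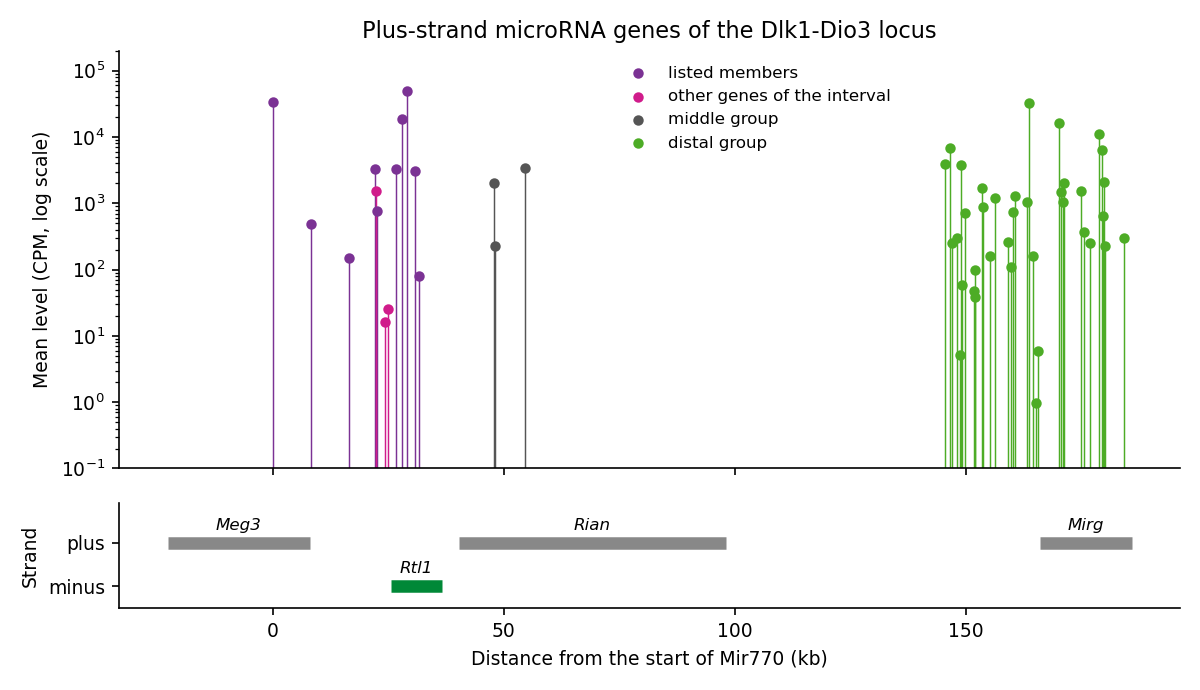
Mean level in CPM on a log axis of each plus-strand microRNA gene with a count, against its distance in kb from the start of Mir770, with the host genes Meg3, Rian, Mirg and, on the minus strand, Rtl1 drawn to scale below. The members occupy the first 31.6 kb and include the highest gene of the locus, Mir127 at 49359 CPM; 5 genes without a count are not drawn.

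MicroRNAs of other imprinted loci gave no common level. Mir298 and Mir296 of the Gnas locus stood at 18736 ± 15887 and 3338 ± 207 CPM, Mir335 of Mest at 2443 ± 214 CPM and Mir483 of Igf2 at 168 ± 35.3 CPM (SD, n = 2). Mir675 of H19 had 1 count in each library. The detected genes outside the list that were closest to the 3 leading members in log2(CPM + 1) over the 2 libraries were Mir99a for Mir127, at a distance of 0.29, Mir487b for Mir770, at 0.20, and Mirlet7d for Mir433, at 0.29. With 2 samples this likeness reflects level more than pattern.

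Marker microRNAs of cell types that hippocampus can hold, and of muscle, moved in both directions between the libraries. The log2 ratio of summed counts was 0.03 for neuronal, 0.32 for oligodendrocyte, -0.05 for astrocyte, -0.19 for vessel wall, 0.37 for microglia and blood, -0.12 for endothelial, -0.09 for choroid plexus and ependyma and 1.22 for muscle markers, beside 0.23 for the members. Of the 3 oligodendrocyte markers Mir219a-2 was higher in replicate 2, with a log2 ratio of 0.65, while Mir338 and Mir219a-1 had -0.07 and -0.26. Within the astrocyte pair Mir29a had 943 and 1874 CPM and Mir21a had 1354 and 441 CPM. Directions were also mixed among neuronal markers, with log2 ratios from -0.24 for Mir132 to 0.36 for Mir138-1 among the 5 leading ones. Of the microglia and blood markers, Mir150 held most counts and had 0.38, Mir142 0.74, Mir451a 0.18 and Mir223 -0.60. In the choroid plexus and ependyma list Mir449a had -0.37, Mir1298 -0.09, Mir34c 0.02 and Mir204 0.20. Among 8 neuronal markers 6 were detected, and their summed share was 2.55% in replicate 1 and 2.72% in replicate 2. Mir132, which follows neuronal activity, was the most abundant of them at 8030 ± 685 CPM, followed by Mir128-1 at 6638 ± 435, Mir138-1 at 5024 ± 1029 and Mir137 at 4273 ± 522 CPM (SD, n = 2). The 3 copies of Mir124 had at most 20 counts, and reads that match several copies are not counted. Mir128, Mir138 and Mir219a also have more than one gene. The levels, order and shares of these markers therefore cover only reads placed at a single gene. Mir126a of endothelium stood at 8144 ± 224 CPM. Summed shares in replicates 1 and 2 were 0.156% and 0.204% for 3 oligodendrocyte markers, 0.230% and 0.232% for 2 astrocyte markers, 0.345% and 0.315% for 2 vessel wall markers, 0.0803% and 0.108% for 4 microglia and blood markers, and 0.619% and 0.609% for 4 choroid plexus and ependyma markers. Of 2 muscle markers, Mir206 had 220 and 346 counts, or 40.2 and 97.1 CPM, a log2 ratio of 1.21, and Mir133b had 0 and 1 counts. In bulk tissue fewer cells of a type and less RNA per cell cannot be told apart, and the part of cell composition in the members' ratios was not tested.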

How the data were processed

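MicroRNA-seq counts were analysed for 2 libraries of 1 group. The authors deposited raw read counts per microRNA gene, 1 file per library and not pooled, with mm10 and GENCODE M21 named in the notes deposited beside them. No aligner, counter or read filter is given in the sources used here. The deposited column for the strand with the larger gene total was taken as sense. The 4 rows without a gene (unmapped, multimapping, outside genes, ambiguous) were left out. They made up 63.6% and 62.4% of all reads by the sense counts. The libraries differed by a chi-square of 274 per gene, where counting error gives about 1. Abundant genes weigh most in this value, which shows only that the libraries differ by more than counting error. Their use as separate biological replicates rests on the labels. Scaling used TMM of edgeR 4.0.16 or size factors of DESeq2 1.42.0, and tests used SciPy 1.17.1. Ratios add 0.5 counts. The binomial test, run across all detected genes, was tried on simulated counts that held only counting error and planted changes. That setting lacks the wider spread between these libraries, so it does not show how the test behaves on them. Sequences and positions came from RefSeq (GRCm38.p6) and GENCODE M21. Seed and target matches were exact, on the strands named.

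The members, lists and tests were chosen with earlier results of these data known. Named genes are the members, other plus-strand genes of the interval, genes opposite a member, 5 imprinted microRNAs of other loci, the 3 leading genes of the middle and distal groups, the closest gene to each of the 3 leading members, and the 5 leading markers. Other markers are named for their counts or ratios. Alternatives were other scalings, count minimums, strand settings, denominators, lists and pseudocounts.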

Additional observations from a re-analysis of the deposited data

Results flagged for a closer look

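The deposited antisense counts were above 0 on the 2 minus-strand genes that face members. Mir3544 had 17041 antisense counts in replicate 1 and 11989 in replicate 2, above the 3 counts that a count of 0 allows. These equal the sense counts of Mir337. Mir3071 had 312 and 364 antisense counts, equal to the sense counts of Mir136. Since they equal the members' own counts, these values add no measurement of the minus strand. Both genes had 0 sense counts in each library.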

How the results depend on the processing

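The members' share of 11.3% became 4.18% ± 0.688 with all reads as the denominator and 6.69% ± 0.300 with Mir127 taken out of both the list and the total. Without one replicate it ranged from 10.2% to 12.4%. The share held by genes antisense to Rtl1, 65.7%, was 39.8% with Mir127 likewise taken out and ranged from 61.2% to 70.2% without one replicate. Without regard to strand, 8 of 10 members were detected, Mir337 and Mir136 being lost, and 8 differed between libraries. In a test added after the data were seen, limited to genes whose mean count was 10000 or more, 6 members remained to be tested. All 6 differed, as did 97.4% of the 76 genes at that depth. In the other settings of the test (2 other scalings, scaling without the members, 2 other count minimums) 10 of 10 differed, 7 higher and 3 lower. Over all tested genes 61.5% differed with DESeq2 size factors, 60.6% with library totals and 60.1% with scaling without the members. With a minimum of 100 counts 82.8% differed, and with no minimum 35.3%. No member's direction turned under another scaling. The share of calls over all genes that were higher in replicate 2 was 46.8% with TMM, 52.7% with library totals and 56.6% with totals that leave the members out, and the number of genes called was 288 of 817 with no count minimum. The median log2 ratio of all detected genes moved from 0.05 with TMM to 0.11 with library totals, and that of the members from 0.17 to 0.23. The test between libraries cannot be made without a replicate. No paired analysis was possible because there is 1 group. Depth limits Mir136 most.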

Other observations

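The arms of some members resemble each other. The arms of Mir431 share the 10 bases GUCUUGCAGG and those of Mir434 share the 9 bases UUUGAACCA, and in the RefSeq table each stretch occurs in these 2 arms only. The arms of the other 8 members share at most 6 bases. Between members the longest common stretch was the 9 bases CGUCAUGCA of miR-337-5p and miR-431-5p, found in no other mature sequence of the table. In the Mir434 hairpin, shown with its arms in capitals, the 9 bases occur once more before the 5p arm.
Mir434 hairpin: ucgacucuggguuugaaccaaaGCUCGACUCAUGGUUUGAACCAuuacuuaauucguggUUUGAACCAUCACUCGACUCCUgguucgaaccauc

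Seed matches in the Rtl1 transcript were counted as exact complements of bases 2 to 8. Of the 10 arms opposite Rtl1, 5 had more matches than their own site, with 4 in all for miR-434-3p, 3 each for miR-434-5p and miR-431-5p, and 2 each for miR-431-3p and miR-136-5p. Of the 10 arms of the Meg3 end, 5 had at least 1 match, beside 38.6% of the 1738 mature sequences in the table. A match of letters is no measure of binding.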
